A study of Homo sapiens with 36 samples.

Results

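The genes described here are 10 early-response genes of the human monocyte. They are the early growth response factors EGR1, EGR2 and EGR3, the Krüppel-like factors KLF2, KLF4, KLF6, KLF9 and KLF10, and the immediate early response genes IER2 and IER3. They were taken by symbol and matched to the Ensembl identifiers of the count tables, and are 10 of the 57500 genes counted there. The rule used symbols and no measured value. All 10 passed the filter on low counts and are among the 17720 genes tested.

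Immediate early genes are transcribed within minutes of a stimulus from factors that the cell already holds, without new protein synthesis. EGR1, EGR2 and EGR3 are zinc finger factors that bind GC-rich DNA downstream of MAP kinase signalling, and in myeloid cells EGR1 and EGR2 are known for their part in monocyte and macrophage differentiation. Their promoters are textbook targets of serum response factor, which binds CArG boxes together with ternary complex factors, and of CREB, which binds cyclic AMP response elements. The Krüppel-like factors bind GC and CACCC boxes. KLF2 keeps monocytes quiescent and restrains NF-kB, KLF4 drives monocyte differentiation, KLF6 is a coactivator of inflammatory genes in myeloid cells, and KLF9 and KLF10 act largely as repressors, KLF9 as a target of the glucocorticoid receptor and KLF10 as a target of TGF-beta. IER2 is a small nuclear protein induced by growth factors, and IER3 is an NF-kB target that affects cell survival.

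The study asked whether the orphan nuclear receptors NR4A2 and NR4A3 shape the response of monocytes to elevated CO2 and to lipopolysaccharide (LPS), a bacterial cell wall component that activates Toll-like receptor signalling. THP-1, a monocytic line of leukaemic origin, carried lentiviral short hairpin RNA against no human target (shNT), against NR4A2 (shNR4A2) or against NR4A3 (shNR4A3). Each line was kept in pH-buffered medium under 5% CO2 (the normal level) or 10% CO2 (elevated) for 4 h. The cells received either no LPS or 2.5 µg/ml LPS for the final 2 h. The 12 conditions had 3 replicates each, 36 libraries in all. All 3 lines had been transduced, so none of the groups is the untouched parental line, each target gene is represented by a single knockdown line, and whether a line is 1 clone or a pool of cells is not given in the labels. The study describes its replicates as individual experiments, while the labels do not say which libraries were made together.

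The libraries held between 16171161 and 23929138 counts. NR4A2 with LPS stood at 13.4 to 28.3 TPM (transcript abundance scaled to gene length and to the whole library) in the 6 shNR4A2 libraries against 44.0 to 74.7 TPM in shNT, and NR4A3 with LPS at 12.5 to 20 TPM in the 6 shNR4A3 libraries against 30.6 to 38.6 in shNT, without overlap in either case. Both genes were thus lowered but still induced, and without LPS, where they are scarce, the ranges of NR4A2 in shNR4A2 (1.07 to 2.41 TPM) and shNT cells (1.49 to 4.16 TPM) overlapped. Of 8 monocyte and myeloid markers all had counts in every library, with MPO (1.80 to 6.43 TPM) and CD68 (2.23 to 6.47 TPM) the lowest and SPI1 (467 to 1132 TPM) the highest. Of 8 markers of T, epithelial, fibroblast and erythroid cells, all stayed at or below 1.57 TPM in every library. In bulk RNA, fewer cells expressing a gene and less of its RNA per cell cannot be told apart. Fold changes come from edgeR with TMM scaling, which assumes that most genes do not change. Without that scaling the median gene was lower with LPS by 0.18 to 0.25 on the log2 scale. TPM ratios of LPS to no LPS therefore read lower than the fitted fold changes.

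RefSeq promoter windows (GRCh38.p14, the 250 bases before a transcript start) were held for 7 of the 10 genes. The windows of EGR1 and EGR2, the genes that respond to LPS and share the closest arrangement of elements, are shown by the stretches next to the start. Capitals mark CArG boxes and the 6 letters ACGTCA, which read TGACGT on the other strand. The EGR1 stretch is chr5:138465329-138465478 on the plus strand, upstream of the gene. The EGR2 stretch is chr10:62816375-62816486 on the minus strand, before the start of the short transcript and inside introns of longer ones. Both are given 5′ to 3′.
EGR1: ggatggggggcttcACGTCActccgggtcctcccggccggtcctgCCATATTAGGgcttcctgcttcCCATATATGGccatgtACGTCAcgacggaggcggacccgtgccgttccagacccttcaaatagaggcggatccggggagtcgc
EGR2: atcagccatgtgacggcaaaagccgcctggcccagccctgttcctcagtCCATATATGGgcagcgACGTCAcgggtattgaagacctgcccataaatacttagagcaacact

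The EGR1 window held 2 CArG boxes, 105 and 83 bases before the start, and 2 matches to TGACGT (searched on both strands), 136 and 67 bases before it. The EGR2 window held a CArG box 71 bases and a TGACGT match 55 bases before the start. Among all 35116 RefSeq windows of that length, 1.16% held a CArG box, 7.1% held TGACGT and 0.0769% (27 windows) held both. In both genes the CArG box nearest to the start has the same letters and stands at the same distance before ACGTCA. The windows of KLF2, KLF4, KLF6, KLF9 and IER2 held neither of these motifs. The core of the GC box, GGGCGG, occurred in those of KLF2, KLF4, KLF6 and IER2, in the windows of longer EGR2 transcripts and in 42.6% of all windows. An NF-kB motif was found in 1 window of EGR2, 130 bases before the start of a longer transcript, and in 9.96% of all windows. A match is a description of letters and does not show binding.

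In the coordinates of GRCh38, the build of the files, EGR1 (ENSG00000120738) lies on chromosome 5 from 138465490 to 138469315 on the plus strand, and EGR2 (ENSG00000122877) on chromosome 10 from 62811996 to 62919900 on the minus strand. EGR3 (ENSG00000179388) lies on chromosome 8 from 22687659 to 22693302. KLF2 (ENSG00000127528) occupies chromosome 19 from 16324817 to 16327874, KLF4 (ENSG00000136826) chromosome 9 from 107484852 to 107490482, and KLF6 (ENSG00000067082) chromosome 10 from 3775996 to 3785281. KLF9 (ENSG00000119138) spans 70384597 to 70414624 on chromosome 9, and KLF10 (ENSG00000155090) spans 102648779 to 102655902 on chromosome 8. IER2 (ENSG00000160888) is found on chromosome 19 from 13150415 to 13154908 and IER3 (ENSG00000137331) on chromosome 6 from 30743199 to 30744554. Of the exon bases, 30.8% in IER2 and 26.5% in IER3 are shared with a gene on the other strand, the latter with IER3-AS1, and 3.38% in EGR3. The strand setting of the counting is not given in the sources used here, so reads of these pairs cannot be told apart.

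Before the responses, the libraries of a condition were set against each other, since they did not vary independently from gene to gene. By TPM, the library labelled replicate 3 at 5% CO2 was the lowest of its condition in 45 of 60 gene and condition pairs and the highest in 0. EGR1 and IER2 were lowest in replicate 3 in all 6 conditions at 5% CO2, and EGR2, EGR3 and KLF9 in 5 of 6. The deviations that follow are in counts scaled to library size (CPM) on the log2 scale. Averaged over the 10 genes, replicate 3 at 5% CO2 lay below its condition's mean by 0.22 (shNR4A2) to 0.37 (shNR4A2 with LPS). At 10% CO2, again by TPM, the pattern was another one. Replicate 2 was lowest in 38 of 60 pairs, and KLF9 and IER3 were lowest there in all 6 conditions. What set these libraries apart was not tested. Several values that depend on them are given with and without them below.

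**Figure D1:**
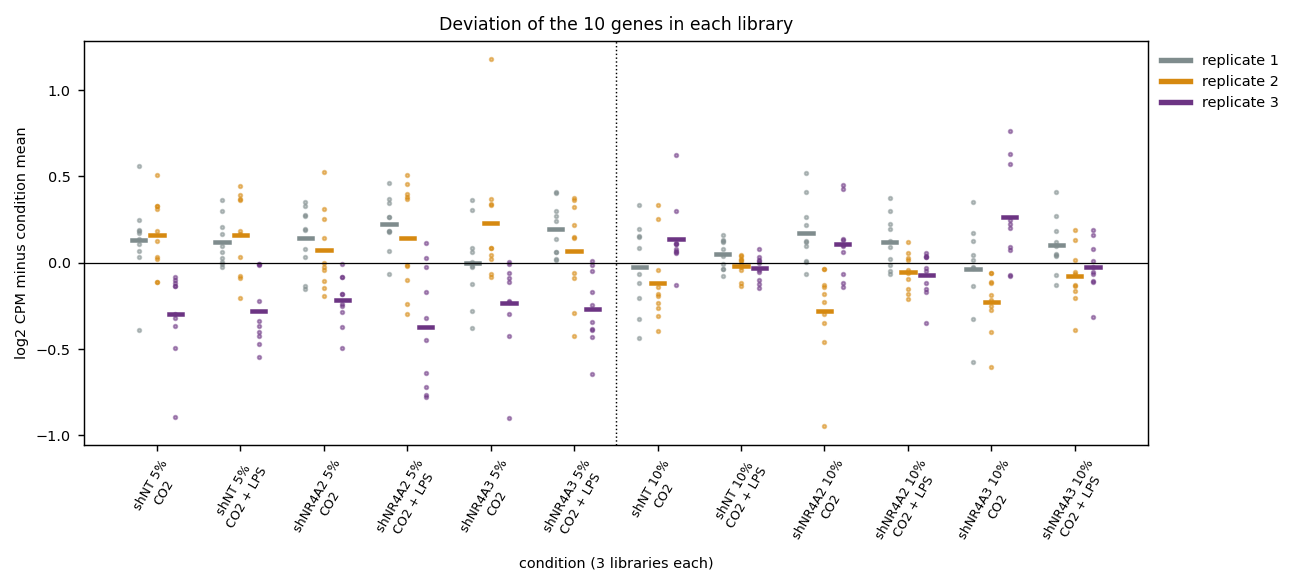
Deviation of each gene from its condition's mean (vertical axis, log2 CPM) in the 36 libraries, grouped by condition along the horizontal axis, with 5% CO2 left of the dotted line and 10% right of it. Small points are the 10 genes and short bars their mean, coloured by replicate number. In all 6 conditions at 5% CO2 the bar of replicate 3 is below 0, at -0.22 to -0.37.

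LPS raised the EGR genes and IER3 in all 3 lines at both CO2 levels by 8.49-fold or more, and raised KLF2, KLF6 and IER2 by 1.68- to 3.22-fold. Without pairing by replicate number, KLF4 fell in shNR4A2 cells, KLF10 rose in both knockdown lines at 10% CO2, and KLF9 passed the test in none. When the replicate number was a block, KLF4 was also called lower in shNR4A3 cells at both CO2 levels. KLF9 was then called lower in shNR4A3 cells at 10% CO2. By edgeR's quasi-likelihood test at an adjusted p under 0.05, LPS changed 7 of the 10 genes in shNT cells at 5% CO2, where 22.9% of all genes tested changed and 11.2% rose. At 10% CO2 it changed 7 in shNT cells, against 31.2% of all genes (15.1% rose). In shNR4A2 cells it changed 8 at 5% CO2 (18.2% of all genes, 8.91% higher) and 9 at 10% CO2 (35%, 16.5% higher). In shNR4A3 cells it changed 7 at 5% CO2 (25.3%, 11.9% higher) and 8 at 10% CO2 (42.1%, 20.6% higher). EGR1, EGR2, EGR3, KLF2, KLF6, IER2 and IER3 rose in all 6 comparisons. The comparisons of 1 line at 5% and at 10% CO2 use separate libraries.

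**Figure D2:**
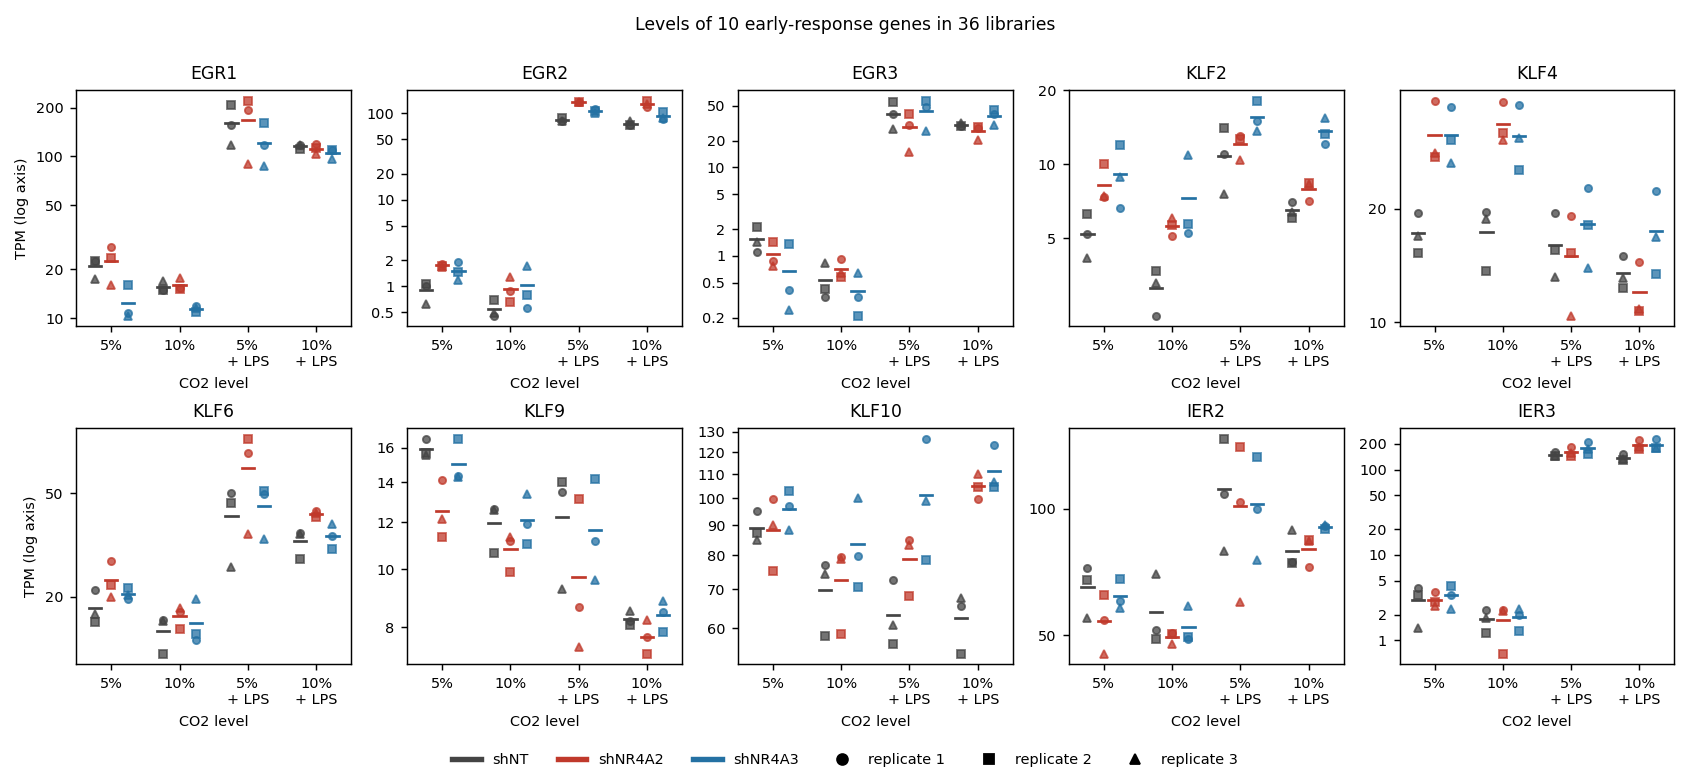
Levels of the 10 genes in TPM (vertical axis, logarithmic, scaled separately for each gene) by CO2 level without and with LPS (horizontal axis). Colours are the 3 lines, symbols the replicate numbers and short bars the mean of 3 libraries. EGR1, EGR2, EGR3 and IER3 with LPS lie above every library without it, while KLF4 without LPS is at 25.3 TPM or more in the shNR4A2 and shNR4A3 lines and at 19.6 TPM or less in shNT.

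EGR1, the best known of the family, was already present in unstimulated cells. In shNT cells at 5% CO2 replicates 1 to 3 held 22.6, 22.7 and 17.3 TPM without LPS and 155, 209 and 118 TPM with it. At 10% CO2 they held 14.8, 14.9 and 17.0 TPM without LPS and 118, 110 and 118 TPM with it. The groups with and without LPS lay far apart at both CO2 levels, and the 3 LPS libraries were closer to each other at 10% CO2. The log2 fold change was 3.16 at 5% CO2 (standard error, SE, 0.215, adjusted p = 2.23e-05, edgeR) and 3.16 at 10% (0.106, adjusted p = 1.91e-13). In shNR4A2 cells it was 3.16 and 3.09, and in shNR4A3 cells 3.51 and 3.48, which is an 8.49- to 11.4-fold rise over the 6 comparisons.

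EGR2 was scarce without LPS and abundant with it. Unstimulated shNT cells at 5% CO2 held 1.00, 1.07 and 0.619 TPM (12 to 21 counts), and LPS took them to 82.1, 88.6 and 80.9 TPM. At 10% CO2 the values were 0.458, 0.703 and 0.497 TPM without LPS and 73.8, 72.9 and 81.7 TPM with it. The induced level was tight, with a mean of 83.9 ± 4.14 TPM (SD, n = 3) at 5% and 76.1 ± 4.88 TPM at 10% CO2. It was higher in both knockdown lines with LPS, at 136, 136 and 136 TPM in shNR4A2 cells at 5% CO2 and at 112, 105 and 102 TPM in shNR4A3 cells. The log2 fold change over the 6 comparisons ran from 6.34 (shNR4A3 at 5% CO2) to 7.37 (shNT at 10% CO2), 81.2- to 166-fold, on small counts before LPS.

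EGR3 replicates with LPS were spread more at 5% than at 10% CO2. In shNT cells at 5% CO2 it stood at 1.12, 2.10 and 1.45 TPM without LPS and 39.8, 54.9 and 27.3 TPM with it, and at 10% CO2 at 0.348, 0.420 and 0.823 TPM against 29.4, 29.4 and 32.2 TPM. In shNR4A3 cells without LPS the counts ran from 6 to 29, so the fold change there rests on few reads. The rise was 4.93 on the log2 scale in shNT cells at 5% CO2 (SE 0.325, adjusted p = 3.21e-05, edgeR), 6.09 at 10%, 5.05 and 5.45 in shNR4A2 cells and 6.28 and 6.90 in shNR4A3 cells.

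IER3, the NF-kB target, was also scarce before LPS and abundant after it. In shNT cells at 5% CO2 it went from 4.14, 3.38 and 1.403 TPM to 159, 145 and 143 TPM, and at 10% CO2 from 2.24, 1.23 and 1.84 TPM to 150, 131 and 132 TPM. No library with LPS held less than 131 TPM and no library without it more than 4.34 TPM. Its log2 fold change was 5.86 to 7.07 over the 6 comparisons, 57.9- to 135-fold. At the 5% CO2 level the rise was 5.86 in shNT, 6.0 in shNR4A2 and 5.97 in shNR4A3 cells, and at 10% it was 6.53, 7.07 and 7.02.

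IER2, by contrast, was abundant at rest and rose modestly. Over the 18 libraries without LPS it lay between 45.2 and 72.2 TPM (median 54.6), and over the 18 with LPS between 60.2 and 147 TPM (median 89.3), so the 2 ranges met. Within each line and CO2 level the 3 LPS libraries lay above the other 3 in CPM. The log2 fold change was 0.75 (shNT at 10% CO2) to 1.16 (shNR4A2 at 5% CO2), 1.68- to 2.23-fold. In shNT cells at 5% CO2 the call (0.99, standard error 0.213, adjusted p = 0.0145, edgeR) was lost without replicate 2 or 3 of the unstimulated libraries or replicate 1 of those with LPS (adjusted p = 0.0526, 0.0569 and 0.0512). In shNR4A2 cells at 5% CO2 it was lost without unstimulated replicate 1 (0.0614).

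Among the Krüppel-like factors KLF6 and KLF2 rose. KLF6, at 12.04 to 27.5 TPM without LPS and 26.1 to 81.1 TPM with it, changed by 1.35 to 1.69 on the log2 scale, 2.55- to 3.22-fold. In shNR4A2 cells at 5% CO2 with LPS its replicates held 71.6, 81.1 and 34.97 TPM, and in shNT cells 50.2, 46.0 and 26.1 TPM, with replicate 3 the lowest in both. In shNT cells at 5% CO2 the call (adjusted p = 0.00586, edgeR) was lost without unstimulated replicate 3 (adjusted p = 0.059). KLF2, at 2.42 to 11.99 TPM without LPS and 6.03 to 18.1 TPM with it, rose by 1.27 and 1.32 in shNT cells, 0.80 and 0.77 in shNR4A2 cells, and 0.99 and 1.18 in shNR4A3 cells (5% and 10% CO2). The rise of KLF2 in shNR4A2 cells at 5% CO2 (adjusted p = 0.0153) was lost when only library size was used as the scale (0.0549), without the replicate 3 libraries (0.0593) and when any of 3 single libraries was left out (0.0664 to 0.0705).

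KLF4 was the member whose LPS response differed between lines by a direct test. In shNT cells the response did not pass the test. Its replicates at 5% CO2 held 19.4, 15.3 and 17.0 TPM without LPS and 19.5, 15.5 and 13.2 TPM with it, and at 10% CO2 19.6, 13.7 and 18.8 TPM against 15, 12.3 and 13.1 TPM. The groups overlapped at both levels. The log2 fold change was 0.12 (95% interval -0.16 to 0.40) at 5% CO2 and -0.10 (-0.38 to 0.18) at 10%, and with library size alone the former was -0.06, of the other sign.

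In shNR4A2 cells KLF4 started higher and fell. Without LPS its replicates held 38.6, 27.5 and 28.1 TPM at 5% CO2 and 38.4, 31.9 and 30.5 TPM at 10%. With LPS they held 19.2, 15.3 and 10.4 TPM at 5% CO2 and 14.5, 10.7 and 10.8 TPM at 10%. Every LPS library lay below every library without LPS. KLF4 fell by 0.81 on the log2 scale at 5% CO2 (SE 0.213, adjusted p = 0.0174, edgeR) and by 1.20 at 10% (0.164, adjusted p = 5.6e-05). The call at 5% CO2 was lost without unstimulated replicate 1 (adjusted p = 0.07) or LPS replicate 3 (0.0536).

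In shNR4A3 cells KLF4 moved from 37.3, 30.4 and 26.4 TPM to 22.7, 18.1 and 14.0 TPM at 5% CO2, and from 37.6, 25.3 and 30.8 TPM to 22.3, 13.5 and 16.8 TPM at 10%. Again the groups did not overlap in TPM. Both log2 fold changes were -0.56, with an adjusted p of 0.0644 at 5% CO2 and 0.0918 at 10% (edgeR). Here same-numbered libraries with and without LPS deviated together over the genes, and with the replicate number as a block the fall was called at both levels (-0.57, adjusted p = 0.000249, and -0.57, adjusted p = 5.49e-07).

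The difference of the KLF4 response between lines was tested directly over both CO2 levels. The LPS response of shNR4A2 cells was lower than that of shNT cells, with a difference of -1.01 (SE 0.207, 95% interval -1.42 to -0.61, adjusted p = 0.0333, edgeR), the only member called, against 0.226% of all genes. In shNR4A3 cells the difference was -0.57 (95% interval -1.004 to -0.14, adjusted p = 0.335). There 0 members were called by edgeR, 3 had an unadjusted p under 0.05, DESeq2 called 1, KLF10 (higher, adjusted p = 0.0213), and 0.547% of all genes were called. The shNR4A2 call was lost in 1 fit to all 36 libraries (adjusted p = 0.0742), without the replicate 3 libraries at 5% CO2 (0.0936), and without any of 14 of the 24 single libraries. Both contrasts share the shNT libraries.

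**Figure D3:**
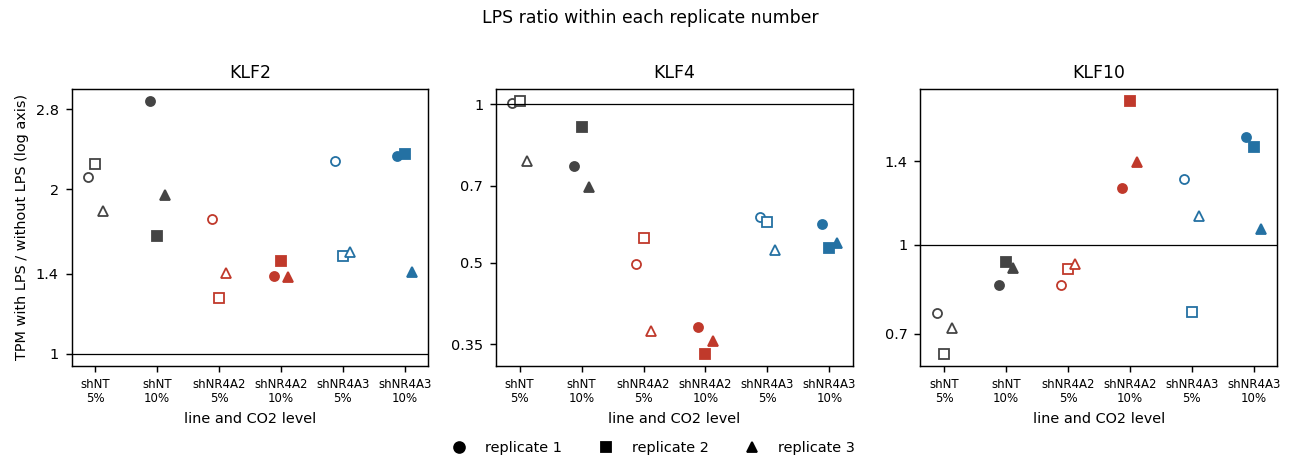
Ratio of TPM with LPS to TPM without it (vertical axis, logarithmic, the line at 1 marking no difference) for libraries of the same replicate number, by line and CO2 level (horizontal axis; open symbols 5%, filled 10%). KLF2 is above 1 in all 18 ratios, KLF4 is at 0.336 to 0.609 in the 2 knockdown lines and at 0.696 to 1.01 in shNT, and KLF10 is above 1 in all 3 ratios at 10% CO2 in both knockdown lines but in none in shNT.

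KLF10, with the highest levels among the KLF members at 54.3 to 126 TPM, rose with LPS in the knockdown lines at 10% CO2. In shNR4A2 cells there it went from 79.6, 58.7 and 78.9 TPM to 99.95, 105 and 110 TPM, a log2 fold change of 0.81 (SE 0.128, adjusted p = 0.000184, edgeR). In shNR4A3 cells at 10% CO2 it went from 79.8, 70.6 and 100 TPM to 123.4, 105 and 107 TPM (0.70, standard error 0.111, adjusted p = 0.000401). The groups did not overlap in either line. At 5% CO2 it was not called in any line, with 0.11 in shNR4A2 (95% interval -0.18 to 0.40) and 0.31 in shNR4A3 cells (-0.04 to 0.66), where it was called higher without LPS replicate 2 (adjusted p = 0.00341) and without the filter on low counts (0.018). In shNT cells it stood at 95.3, 87.1 and 84.8 TPM without LPS and 72.5, 56.3 and 60.7 TPM with it at 5% CO2 (-0.27, adjusted p = 0.0784), every LPS library below the others. There it was called lower with library size alone (-0.45, adjusted p = 0.00396), with the replicate block (-0.28, 0.0125), and without unstimulated replicate 3 (0.0422) or LPS replicate 1 (0.0184). The interval at 10% CO2 was -0.10 to 0.33 around 0.11. The difference of this response from that of shNT cells was 0.55 in shNR4A2 (adjusted p = 0.162) and 0.59 in shNR4A3 cells (adjusted p = 0.108), neither past the threshold.

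KLF9, the glucocorticoid target, did not pass the test with LPS in any of the 6 comparisons. Its log2 fold changes were -0.12 to -0.26, all negative. The libraries lay at 9.90 to 16.6 TPM without LPS and at 7.22 to 14.2 TPM with it, which includes the shift of all genes in TPM. With library size alone as the scale it was called lower at 10% CO2 in shNT (-0.48, adjusted p = 0.00497), shNR4A2 (-0.45, 0.0131) and shNR4A3 cells (-0.50, 0.00175). In shNR4A3 cells at 10% CO2 the replicate block also gave a call (-0.25, adjusted p = 0.0226).

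**Figure D4:**
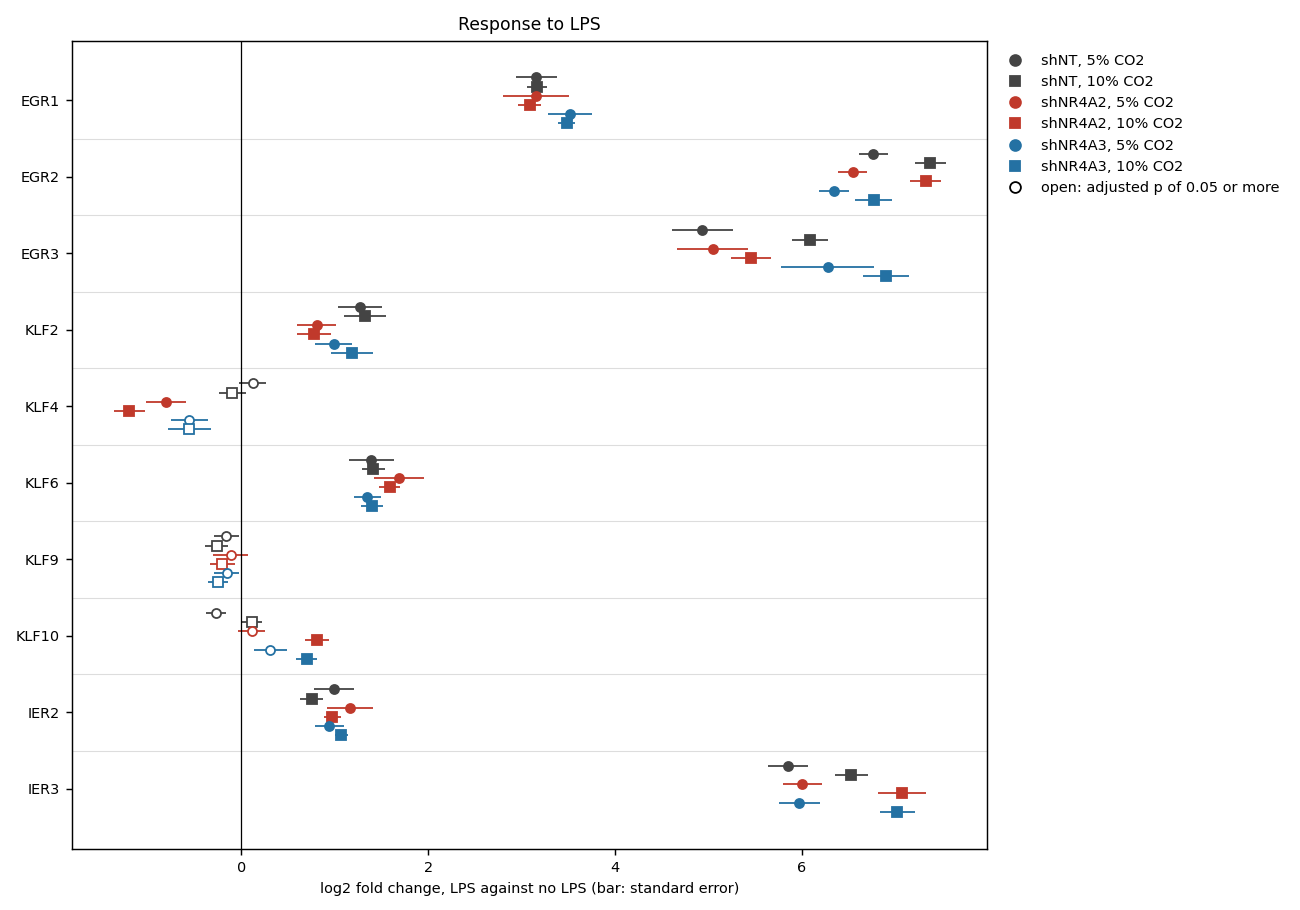
Log2 fold change of LPS against no LPS (horizontal axis, TMM scaling, bars: standard error) for each gene (vertical axis) in 3 lines (colours) at 5% (circles) and 10% CO2 (squares), with open symbols for an adjusted p of 0.05 or more. EGR2, EGR3 and IER3 lie between 4.93 and 7.37, EGR1 between 3.09 and 3.51, and KLF4 reaches -1.20.

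The lines also differed in the level of some members without any response being compared. Without LPS, averaged over both CO2 levels, 4 of the 10 genes differed between shNR4A2 and shNT cells (20.3% of all genes) and 4 between shNR4A3 and shNT cells (16.3%). The contrasts share the shNT libraries. Markers of monocytes and myeloid cells moved with these differences, 5 of 8 being higher and 0 lower in each knockdown line, both without and with LPS. Without LPS their median log2 difference was 0.44 in shNR4A2 and 0.76 in shNR4A3 cells, LYZ reaching 1.67 and 2.21. Their summed level lay at 807 to 1023 TPM in shNT, 1430 to 1698 TPM in shNR4A2 and 1556 to 2158 TPM in shNR4A3 cells without LPS, and at 752 to 1158, 1436 to 1792 and 1694 to 2200 TPM with it. None of the 8 was at 0, and their part in the results for the members was not tested. KLF4 was higher by 0.89 in shNR4A2 (SE 0.117, adjusted p = 3.42e-05, edgeR) and by 0.87 in shNR4A3 cells (0.122, adjusted p = 6.88e-05), and its libraries without LPS lay at 25.3 to 38.6 TPM in the 2 knockdown lines and at 13.7 to 19.6 TPM in shNT. KLF2 was higher by 0.73 (adjusted p = 0.00393) and 1.02 (adjusted p = 0.000916). Its median without LPS was 3.91 TPM in shNT, 6.72 TPM in shNR4A2 and 7.75 TPM in shNR4A3 cells, with overlapping ranges.

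EGR2 without LPS was higher by 0.85 in shNR4A2 (adjusted p = 0.0157, edgeR) and 0.84 in shNR4A3 cells (adjusted p = 0.0429), from 10 to 44 counts a library. The first of these lost its call without the replicate 3 libraries at 5% CO2 (adjusted p = 0.0575) or without shNR4A2 replicate 3 at 10% CO2 (0.0634). The second lost it without the former libraries too (0.0965), and was also lost by DESeq2 (0.0671) and without any of 7 of 12 single libraries. EGR1 was lower in shNR4A3 cells at a log2 difference of -0.59 (SE 0.112, adjusted p = 0.000865), at 10.3 to 16.0 TPM against 14.8 to 22.7 TPM in shNT. In shNR4A2 cells EGR1 differed by 0.05 (95% interval -0.20 to 0.30). KLF9 was lower in shNR4A2 cells at -0.27 (adjusted p = 0.0405), a call lost without any of 9 of 12 single libraries.

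With LPS, 3 of the 10 genes differed between shNR4A2 and shNT cells (27.4% of all genes) and 4 between shNR4A3 and shNT (25.7%). EGR2 was higher by 0.73 in shNR4A2 (SE 0.0508, adjusted p = 4.79e-08, edgeR) and by 0.33 in shNR4A3 cells (0.0548, adjusted p = 0.000417). The 6 libraries with LPS lay at 72.9 to 88.6 TPM in shNT, 120 to 139 TPM in shNR4A2 and 86.1 to 112 TPM in shNR4A3 cells, so shNR4A2 stood clear of shNT. KLF10 was higher by 0.54 (adjusted p = 0.000209) and 0.78 (adjusted p = 0.00154), and IER3 by 0.31 (adjusted p = 0.0247) and 0.40 (adjusted p = 0.0102). The IER3 call in shNR4A2 cells was lost without any of 4 single libraries (adjusted p = 0.0571 to 0.0681). KLF2 stayed higher in shNR4A3 cells (0.80, adjusted p = 0.000265). KLF4, raised without LPS, was not called with it, at -0.13 (95% interval -0.43 to 0.17) in shNR4A2 and 0.30 (-0.01 to 0.61) in shNR4A3 cells.

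For 9 of the 10 genes the log2 fold changes with CO2 did not reach the size of the largest one with LPS, and KLF9 was the exception (-0.16 to -0.43 with CO2, -0.12 to -0.26 with LPS). Between 10% and 5% CO2 edgeR called 0 of the 10 genes in shNT cells without LPS (0.615% of all genes) and with LPS (8.19%), in shNR4A2 cells without (0.0113%) and with LPS (0.198%), and in shNR4A3 cells without (1.13%) and with LPS (2.13%). At an unadjusted p under 0.05 the numbers were 5, 2, 4, 2, 4 and 1 in that order. DESeq2 called 1, KLF10 in shNR4A2 cells with LPS (adjusted p = 0.0387), and 0 in the other 5. Without LPS 9 of the 10 log2 fold changes were negative in each line, KLF4 being the exception, and with LPS 8 of 10 were, the exceptions being KLF10 and IER3. The same-signed values come from 10 genes of the same libraries.

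With LPS, in shNT and shNR4A2 cells, the count rose when a single library was left out. Without replicate 3 of the LPS libraries at 5% CO2, 6 members were called lower in shNT cells with LPS, EGR1 (adjusted p = 0.0121, edgeR), EGR3 (0.021), KLF2 (0.0187), KLF6 (0.0197), KLF9 (0.00909) and IER2 (0.0128). The same left-out replicate in shNR4A2 cells gave 4 calls, EGR1 (adjusted p = 0.00433), KLF6 (0.00355) and IER2 (0.021) lower and KLF10 (0.0499) higher at 10% CO2. In shNR4A3 cells no left-out library gave a call. These libraries were singled out because the members were low in them, so the calls without them are not independent of that choice. The share of all genes called without them is not given here, so the counts cannot be set against it.

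To use all 3 lines, the CO2 response was also averaged over them, a comparison added after the values by line had been seen. This fit and the other averages over lines treat the libraries as independent. Yet same-numbered libraries deviated together, with a median correlation of 0.37 without and 0.423 with LPS, against -0.19 and -0.227 between other numbers. The adjusted p values may therefore overstate the evidence. Without LPS, 6 of the 10 genes were lower at 10% CO2 and 0 higher, against 15.9% of all genes called and 7.76% called lower. EGR3 was lower at -0.88 (SE 0.282, adjusted p = 0.0371, edgeR), IER3 at -0.75 (0.244, 0.0408), EGR2 at -0.66 (0.21, 0.0364), KLF2 at -0.48 (0.151, 0.0315), KLF6 at -0.32 (0.0844, 0.0123) and KLF9 at -0.26 (0.0661, 0.0101). The median over the 9 libraries at each level fell from 3.38 to 1.99 TPM for IER3, from 1.47 to 0.703 TPM for EGR2, from 7.40 to 5.24 TPM for KLF2 and from 20.3 to 16.0 TPM for KLF6, and for all of these the ranges of the 2 CO2 levels overlapped across lines. The count was 2 to 8 with 1 library left out. Without the replicate 3 libraries at 5% CO2 it was 8, all lower, against 16.6% of all genes called. That count is not independent of the choice of libraries, in which the members were low. In 1 fit to all 36 libraries EGR3 (adjusted p = 0.117) and KLF6 (0.0934) were not called. KLF6 and KLF9 kept their call without any single library, and EGR2, EGR3, KLF2 and IER3 lost it without 9 to 11 of the 18.

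With LPS the average over the lines gave 2 calls (28.9% of all genes, 14.5% lower), KLF2 at -0.42 (SE 0.101, adjusted p = 0.00376, edgeR) and KLF9 at -0.37 (0.0953, 0.00662). KLF2 with LPS lay at a median of 13.02 TPM at 5% CO2 and 8.35 TPM at 10%, and KLF9 at 11.2 TPM (7.40 to 14.2) and 8.18 TPM (7.22 to 8.83). EGR1 with LPS went from a median of 155 TPM (86.7 to 220) at 5% CO2 to 110 TPM (96.9 to 120) at 10%, a log2 fold change of -0.33 (95% interval -0.64 to -0.03, adjusted p = 0.133). Its libraries at 5% CO2 spread over the whole range of those at 10% and beyond at both ends. Without the replicate 3 libraries at 5% CO2, 6 members were called, against 31.3% of all genes. EGR1 (adjusted p = 2.66e-05, edgeR), EGR3 (0.0051), KLF6 (7.72e-06) and IER2 (9.03e-05) joined KLF2 and KLF9. The libraries were left out because the members were low in them, so these calls and p values are not independent of that choice. EGR2 with LPS did not pass the test, with an interval of -0.14 to 0.03 around -0.06.

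**Figure D5:**
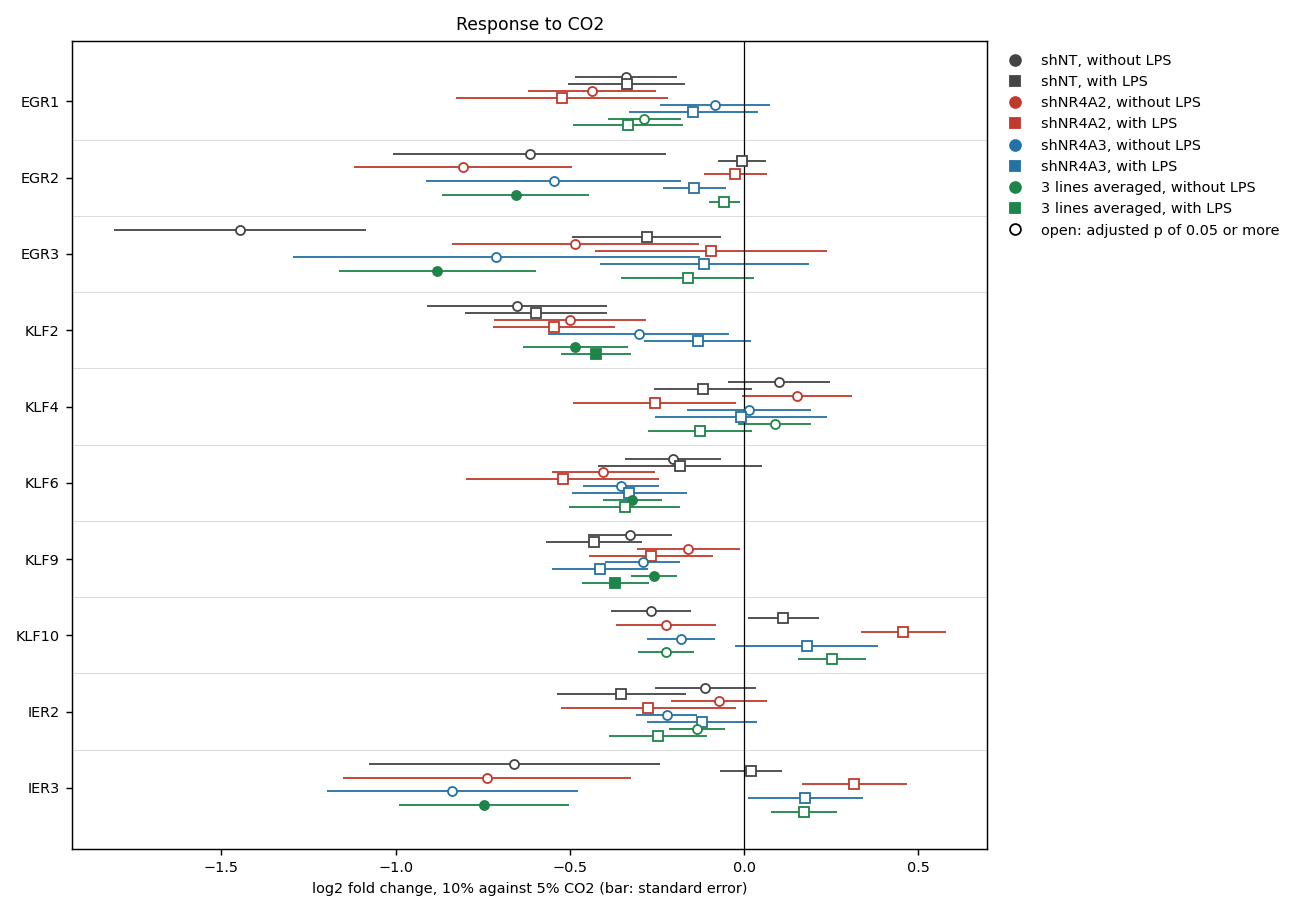
Log2 fold change of 10% against 5% CO2 (horizontal axis, TMM scaling, bars: standard error) for each gene (vertical axis) in the 3 lines and averaged over them (colours), without LPS (circles) and with it (squares), with open symbols for an adjusted p of 0.05 or more. Without LPS the averages of EGR2, EGR3 and IER3 lie at -0.66, -0.88 and -0.75, and with LPS at -0.06, -0.16 and 0.17.

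Whether CO2 changed the LPS response itself was tested as an interaction. By edgeR 0 members were called in shNT (0.0226% of all genes), shNR4A2 (0%) and shNR4A3 cells (0%), the counts at an unadjusted p under 0.05 were 3, 3 and 1, and those by DESeq2 were 0, 0 and 0. Averaged over the lines, again added after the values were seen, 0 were called (1.99% of all genes) and 3 had an unadjusted p under 0.05. These were IER3 (0.92, 95% interval 0.42 to 1.42, adjusted p = 0.0542), EGR2 (0.60, 0.26 to 0.93, adjusted p = 0.0623) and KLF10 (0.48, 0.22 to 0.74, adjusted p = 0.056), each with a larger LPS response at 10% CO2. DESeq2 called all 3 (adjusted p = 0.00297, 0.012 and 0.0179). EGR1 gave -0.04 (-0.44 to 0.36). The median level of EGR2 at 5% and 10% CO2 was 1.47 and 0.703 TPM without LPS, and 105 and 88.6 TPM with it. For IER3 it was 3.38 and 1.99 TPM without LPS, and 154 and 179 TPM with it. The larger responses of these 2 genes thus include lower levels before LPS at 10% CO2, on small counts, and EGR2 was not higher with LPS there. The CO2 response differed between shNT and the knockdown lines for 0 members in each line (0% of all genes). DESeq2 called 0 as well, and 0 passed an unadjusted p of 0.05. The difference was within -0.25 to 1.403 for EGR3 and -0.30 to 0.52 for KLF2 in shNR4A2 cells.

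The order of the 12 conditions differed by gene. EGR2 was highest in shNR4A2 cells with LPS, at 136 ± 0.423 TPM at 5% and 129 ± 9.85 TPM at 10% CO2 (SD, n = 3), which overlapped, then came shNR4A3 cells with LPS at 106 ± 5.10 and 93.1 ± 10.1 TPM, below the former without overlap, and then shNT with LPS. IER3 with LPS ran from 196 ± 28.3 TPM in shNR4A3 cells at 10% CO2 down to 138 ± 10.9 TPM in shNT at 10%, each condition overlapping the next. KLF4 put the 4 knockdown conditions without LPS at 31.2 to 33.6 TPM, apart from the other 8 at 12.01 to 18.3 TPM, which overlapped their neighbours. KLF10 overlapped between every pair of neighbours from 112 ± 10.3 TPM (shNR4A3, 10% CO2 with LPS) to 62.5 ± 7.18 TPM (shNT, 10% CO2 with LPS).

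Over the 12 condition means of log2 CPM, the 3 EGR genes followed each other, with a Pearson r of 0.981 for EGR1 and EGR2, 0.99 for EGR1 and EGR3 and 0.98 for EGR2 and EGR3. EGR2 and IER3 had r = 0.996. These points split into 6 with and 6 without LPS and share their libraries, so any gene with a large LPS response has a high r, and the values are descriptions. KLF4 against EGR1 gave -0.675, and KLF9 against EGR1 -0.435. The genes most like EGR1 were DUSP8 (0.996), TNF (0.995) and ATF3 (0.993), those most like EGR2 were RHOH (0.999), BTG2 (0.998) and E2F7 (0.997), and those most like EGR3 were TNF (0.995), DUSP8 (0.994) and RELB (0.993). SOCS3 (0.999), CXCL1 (0.999) and RELB (0.999) came closest to IER3, and ERGIC3 (0.986), FLOT1 (0.985) and LRRC32 (0.984) to IER2. For the KLF genes the closest were ZFP36 (0.977), DUSP10 (0.971) and IPPK (0.970) for KLF2, SLA (0.963), STK32C (0.923) and ZNF503 (0.922) for KLF4, and MAP1LC3B (0.991), TWIST1 (0.990) and GADD45A (0.989) for KLF6. KLF9 had NCAPH (0.959), ENSG00000187951 (0.956) and JARID2-DT (0.953), and KLF10 had OAS2 (0.913), FST (0.910) and ARSB (0.906).

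The relatives and partners of these genes were counted from lists. In shNT cells at 5% CO2, LPS raised 2 of 3 other EGR genes and EGR corepressors, EGR4 (log2 fold change 2.71) and NAB1 (1.53, a corepressor that binds EGR proteins), while NAB2 was at -0.02 (adjusted p = 0.941, edgeR). At 10% CO2 all 3 rose in each line. Of 13 other KLF genes 10 were tested, and in shNT cells at 5% CO2 KLF5 (1.83) and KLF3 (0.79) rose and KLF16 (-0.88) fell. Among the 9 SP factors, the KLF genes' closest relatives, 6 were tested, SP5 (3.05) rose, and SP1 (-0.48) and SP3 (-0.28) fell. SP5 had only 0 to 26 counts a library over all 36, so its fold change rests on few reads. IER5 (1.64) rose and IER5L (-1.81) fell. The medians of the lists were 1.53, -0.20, -0.05 and -0.09 in that order, against 1.33 for the 10 members and 0.00 for all genes tested.

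Genes acting upstream of the members were counted in the same way, beside 22.9% of all genes called. Of 14 genes of the path to the EGR promoters (serum response factor, ternary complex factors, MAP kinases and CREB), MAP3K8 (3.41, the kinase that links Toll-like receptors to ERK) and MRTFA (0.44) rose in shNT cells at 5% CO2 with LPS, ELK3 (-0.75) and RPS6KA1 (-0.29) fell, and 10, SRF among them (0.13, adjusted p = 0.304, edgeR), did not pass the test. Of 5 genes upstream of KLF2 and KLF4, MEF2D (-0.65) and MAPK7 (-0.33, the ERK5 kinase) fell and 3 did not pass. All 11 other immediate early genes rose in shNT cells at both CO2 levels, led at 5% by BTG2 (5.58), PPP1R15A (4.62) and DUSP1 (3.23). In the averaged CO2 response without LPS, 5 of those 11 were lower at 10% CO2 and 0 higher, against 7.76% of all genes lower. Their median was -0.31, beside -0.30 for the 10 members and 0.00 for all genes. With LPS 4 of 11 were lower (14.5% of all genes), and NAB1 (0.43) and NAB2 (0.79) were higher.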

How the data were processed

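RNA-seq was analysed from 36 libraries, 3 for each of 12 conditions, grouped by their labels. Per the labels and the methods of the study, the authors used Trimmomatic 0.36 for trimming and STAR 2.5.2b for alignment to GRCh38, and deposited raw counts per gene made by featureCounts (Subread 1.5.2), 1 library per file. Strandedness, annotation release and the unit counted (read or fragment) are not given in the sources used here. Of the 57500 identifiers 56410 (98.1%) were matched to a symbol. TPM was computed from the deposited counts and gene lengths. Intervals of log2 fold changes are 1.96 standard errors either way.

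Each comparison used its own libraries with TMM scaling and edgeR 4.0.16 (R 4.3.3, quasi-likelihood F test, robust), with Benjamini-Hochberg adjustment over 17720 genes that passed filterByExpr (minimum count 10, minimum total 15) over all 36 libraries. The study used DESeq2, taken here as an alternative (1.42.0). With 3 libraries against 3 an exact permutation test cannot reach a two-sided p below 0.1, so smaller values rest on the model. Replicates differed by more than counting noise (chi-square per degree of freedom 6.62 to 29.6 over 36 pairs). The scripts were tested on simulated data.

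All 10 genes were named in every comparison. Of other lists, the 3 called genes with the largest change in each direction in shNT cells at 5% CO2 with LPS were named, all genes of lists of up to 3, and the 3 genes most like each member. NR4A2 and NR4A3 served to check the labels. A marker gene of the lists is not reported here. NAB1 and NAB2 under CO2, SRF, LYZ, and the calls by DESeq2 were chosen once their values were known. The members and lists were chosen with earlier results of these data known.

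The replicate number was checked as a pairing over 9374 genes with a mean of at least 10 CPM. Every same-number correlation of the libraries' deviations passed 0.1 in 5 of the 6 LPS comparisons (all but shNT at 5% CO2) and in the CO2 comparison of shNR4A2 cells without LPS. Alternatives were RLE factors, library size only, DESeq2, no filter, the replicate block, 1 fit to all 36 libraries and each library left out. The comparisons averaged over the 3 lines, a replicate block within each CO2 level and leaving out the replicate 3 libraries at 5% CO2 were added after seeing the data. Sequences came from RefSeq promoter tables (GRCh38.p14).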

Additional observations from a re-analysis of the deposited data

Results flagged for a closer look

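KLF4 met a test of a difference between lines. Its LPS response in shNR4A2 cells was below that in shNT cells, with a log2 difference of -1.01 (standard error 0.207, adjusted p = 0.0333, edgeR, averaged over both CO2 levels). Same-numbered libraries held 0.336 to 0.557 of the unstimulated TPM after LPS in shNR4A2 cells, lower in 6 of 6, and 0.696 to 1.01 in shNT cells, lower in 4 of 6. In shNR4A3 cells they held 0.529 to 0.609 at 5% and 0.532 to 0.592 at 10% CO2. The fall is thus not particular to shNR4A2 cells, although the difference of shNR4A3 from shNT cells was not called. Without LPS the gene was higher in shNR4A2 cells, and with LPS the 2 lines were not called different. Over the alternatives the adjusted p passed and missed the threshold, and the cause of the difference was not tested.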

How the results depend on the processing

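Members called are given as counts at an adjusted p under 0.05 (edgeR unless named), with the reported count in brackets. No value changed sign among calls. Counts over all genes moved too. Without the filter they went from 1452 to 2238 for CO2 in shNT cells with LPS and from 5120 to 4598 for averaged CO2 with LPS. By DESeq2 they went from 35 to 600 for CO2 in shNR4A2 cells with LPS. Without the filter on low counts, CO2 in shNT cells gave 1 member without LPS (0) and 4 with LPS (0), CO2 with LPS gave 1 in shNR4A2 (0) and 1 in shNR4A3 cells (0), LPS by CO2 gave 1 in shNT (0) and 1 in shNR4A2 cells (0), LPS by line gave 2 in shNR4A2 (1) and 1 in shNR4A3 cells (0), and the averages over lines gave 3 for LPS by CO2 (0) and 4 for CO2 with LPS (2). The shares of all genes were, in that order, 1.13% (0.615%), 5.49% (8.19%), 2.75% (0.198%), 3.38% (2.13%) and 0.245% (0.0226%). They went on with 0.16% (0%), 0.22% (0.226%), 0.524% (0.547%), 1.16% (1.99%) and 9.62% (28.9%). More genes are tested without the filter, so these shares have a larger base. DESeq2 gave 1 for CO2 in shNR4A2 cells with LPS (0), 1 for LPS by line in shNR4A3 cells (0) and 3 for the averaged LPS by CO2 (0), for which library size alone gave 2. Of all genes DESeq2 called, in that order, 4.36% (0.198%), 2.22% (0.547%) and 4.83% (1.99%), and library size alone called 2.17%. In 1 fit to all 36 libraries LPS by line in shNR4A2 cells gave 0 (1) and averaged CO2 with LPS 4 (2), beside 0.237% (0.226%) and 29.3% (28.9%) of all genes. Without the replicate 3 libraries at 5% CO2, LPS by line in shNR4A2 cells gave 0 (1), the shNR4A2 difference without LPS 2 (4), averaged LPS by CO2 2 (0) and averaged CO2 with LPS 6 (2). Shares of all genes there were 0.0959% (0.226%), 14.8% (20.3%), 3.3% (1.99%) and 31.3% (28.9%). These libraries were left out because the members were low in them, so the member counts are not independent of that choice.

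The replicate block gave 1 for CO2 in shNR4A2 cells with LPS (0), 1 for CO2 in shNR4A3 cells without LPS (0), 2 (1) and 2 (0) for LPS by line in shNR4A2 and shNR4A3 cells, 3 (0) for the averaged LPS by CO2 and 4 (2) for averaged CO2 with LPS. The shares of all genes called were, in that order, 3.49% (0.198%), 6.06% (1.13%), 0.497% (0.226%), 1.28% (0.547%), 4.86% (1.99%) and 35.4% (28.9%). A replicate block within each CO2 level gave 1 (0) for LPS by CO2 in shNR4A2 cells, 6 (3) and 8 (4) for the shNR4A2 and shNR4A3 differences with LPS, 2 (1) and 3 (0) for LPS by line, and 3 (0) for the averaged LPS by CO2. Here the shares of all genes were 0.344% (0%), 41.6% (27.4%) and 37.1% (25.7%), 0.83% (0.226%) and 2.62% (0.547%), and 8.92% (1.99%). In the other comparisons not every same-number correlation of the libraries' deviations passed 0.1. For the shNR4A2 difference with LPS they ran from -0.314 to 0.726 (median 0.403), against a median of -0.234 between other numbers. Among the comparisons in which every such correlation passed 0.1, the block changed the calls of KLF4 and KLF9 in shNR4A3 cells given above and no other.

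With 1 library left out the range was 5 to 8 (8) for LPS in shNR4A2 cells at 5% CO2, 5 being without unstimulated replicate 1. It was 0 to 1 (0) for CO2 in shNT cells without LPS, the 1 being EGR3 without replicate 3 at 10% CO2 (adjusted p = 0.0382), 0 to 6 (0) for shNT and 0 to 4 (0) for shNR4A2 cells with LPS, 2 to 4 (4) for the shNR4A2 difference without LPS, 2 being without shNR4A2 replicate 3 at 10% CO2, 0 to 2 (1) and 0 to 1 (0) for LPS by line, 0 to 3 (0) for averaged LPS by CO2, 3 being without shNR4A2 replicate 3 at 5% CO2 with LPS or shNR4A3 replicate 1 there, and 2 to 8 (6) and 2 to 5 (2) for averaged CO2 without and with LPS. The 2 came without shNT replicate 2 at 5% CO2, shNR4A2 replicate 2 at 10% or shNR4A3 replicate 1 or 2 at 10%, the 8 without shNT replicate 3 at 5%, and the 5 without shNR4A2 replicate 3 at 5% with LPS. For single members, over the settings other than 1 library left out, 1707 values kept their call or stayed uncalled within 1 standard error. A further 89 became called, 15 lost their call and 9 stayed uncalled but moved by more. With 1 library left out, 3052 were kept in this sense, 64 became called, 84 lost their call and 40 moved by more. With library size alone 22% to 24.3% of all genes called with LPS were higher, against 47% to 49.2% with TMM. EGR2, EGR3 and IER3 had 5 to 49 counts a library without LPS, which limits their fold changes.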

Other observations

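The corepressors NAB1 and NAB2, which bind EGR proteins and are themselves EGR targets, moved with CO2 in the presence of LPS. Averaged over the 3 lines, NAB2 was higher at 10% CO2 with LPS by 0.79 (adjusted p = 0.00206, edgeR) and NAB1 by 0.43 (adjusted p = 0.000668). The LPS response of NAB2 was larger at 10% than at 5% CO2 by 1.16 (adjusted p = 0.00471). LPS changed NAB2 by -0.02 at 5% and 0.89 at 10% CO2 in shNT cells, 0.43 and 1.75 in shNR4A2 cells, and 0.50 and 1.79 in shNR4A3 cells, and it was called at 10% in all 3 lines and at 5% in none.

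Among the other immediate early genes the averaged CO2 response without LPS was lower for FOSB (-0.77), BTG2 (-0.61), NR4A1 (-0.52), PPP1R15A (-0.43) and ZFP36 (-0.37). With LPS FOSB (-0.60), PPP1R15A (-0.38), ZFP36 (-0.35) and JUN (-0.28) were lower at 10% CO2. The larger LPS response at 10% CO2 was called for BTG2 (0.69, adjusted p = 0.000136, edgeR) and for MAP3K8 (1.23, adjusted p = 0.0171). These genes were named after their values were seen.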
